A study of Mus musculus with 12 samples.

Results

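Hox genes encode homeodomain transcription factors that lie in 4 clusters, Hoxa, Hoxb, Hoxc and Hoxd, and they were read here in the anterior and posterior parts of mouse embryos with and without an intact Lhx1 allele in the epiblast. Members were gene names of the deposited table made of Hox, a cluster letter and a paralog number from 1 to 13, and 37 such genes on 51 probes are reported, among 19060 gene names on 30344 probes. Paralogs with the same number in different clusters descend from a common ancestral gene. In the gastrulating mouse embryo low-numbered paralogs switch on first, in and beside the posterior primitive streak, and higher numbers follow. Their products later set segment identity along the hindbrain and trunk, while the forebrain forms without them. WNT and FGF signals of the streak, the Cdx factors and retinoic acid are known to promote their activation, and TALE homeodomain proteins such as PBX and MEIS bind DNA together with them.

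A set of 12 Illumina bead arrays measured total RNA from E7.75 embryos (early bud to early head-fold stages), in 4 groups of 3 arrays, each from 5 pooled parts of the epiblast region. Control embryos were Lhx1+/flox; Meox2+/Cre and Lhx1epiCKO embryos were Lhx1-/flox; Meox2+/Cre, so both genotypes carried 1 floxed Lhx1 allele and Cre at the Meox2 locus, which acts in the epiblast. Cre deletes the floxed allele, so control epiblast kept 1 intact Lhx1 allele and Lhx1epiCKO epiblast none. Outside the epiblast the genotypes also differed by the Lhx1- allele. The labels call every sample embryonic head, posterior parts included. The anterior neural plate gene Otx2 read 11.4 ± 0.20 on the log2 scale on anterior control arrays and 8.48 ± 0.47 on posterior control arrays (SD, n = 3), and the streak gene T read 10.04 ± 0.16 and 12.67 ± 0.22. The labels call the pools biological replicates, so p-values measure the spread between pools.

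The arrays detected between 14243 and 16238 probes each, and 17041 probes of 11470 genes entered the tests. Replicate 3 of the posterior Lhx1epiCKO group, as labelled, was the most divergent array, with 779 probes over 1 log2 unit away from its group's other arrays. On the array labelled posterior control replicate 2 the Lhx1 probe read 6.90, against its label, since the other posterior controls read 8.54 and 8.35 and the posterior Lhx1epiCKO arrays 6.85, 7.18 and 7.30. The anterior control arrays read between 8.13 and 8.44 for Lhx1 and the anterior Lhx1epiCKO arrays between 6.65 and 7.09. Of the 22 Hox genes tested, posterior control replicate 2 was the highest array of its group for 16, and posterior Lhx1epiCKO replicate 3 the lowest of its group for 13. Other arrays ranked as far out. Posterior control replicate 3 was the lowest for 16, anterior Lhx1epiCKO replicate 1 the lowest for 13 and posterior Lhx1epiCKO replicate 2 the highest for 13.

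Detection differed between the clusters. A gene was counted as detected on an array where any of its probes had a detection p under 0.05. Hoxa2, Hoxa13, Hoxb1, Hoxb2, Hoxb4, Hoxb5, Hoxb6 and Hoxb7 were detected on all 12 arrays, so 6 of the 9 genes of the Hoxb cluster were, 2 of 10 of Hoxa and none of the 9 of Hoxc or the 9 of Hoxd. Over all 37 genes, 9 were detected on all 3 anterior control arrays, 12 on all 3 anterior Lhx1epiCKO arrays, 16 on all 3 posterior control arrays and 18 on all 3 posterior Lhx1epiCKO arrays. The genes detected on no array of a group numbered 22, 16, 12 and 11 in the same order.

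**Figure D1:**
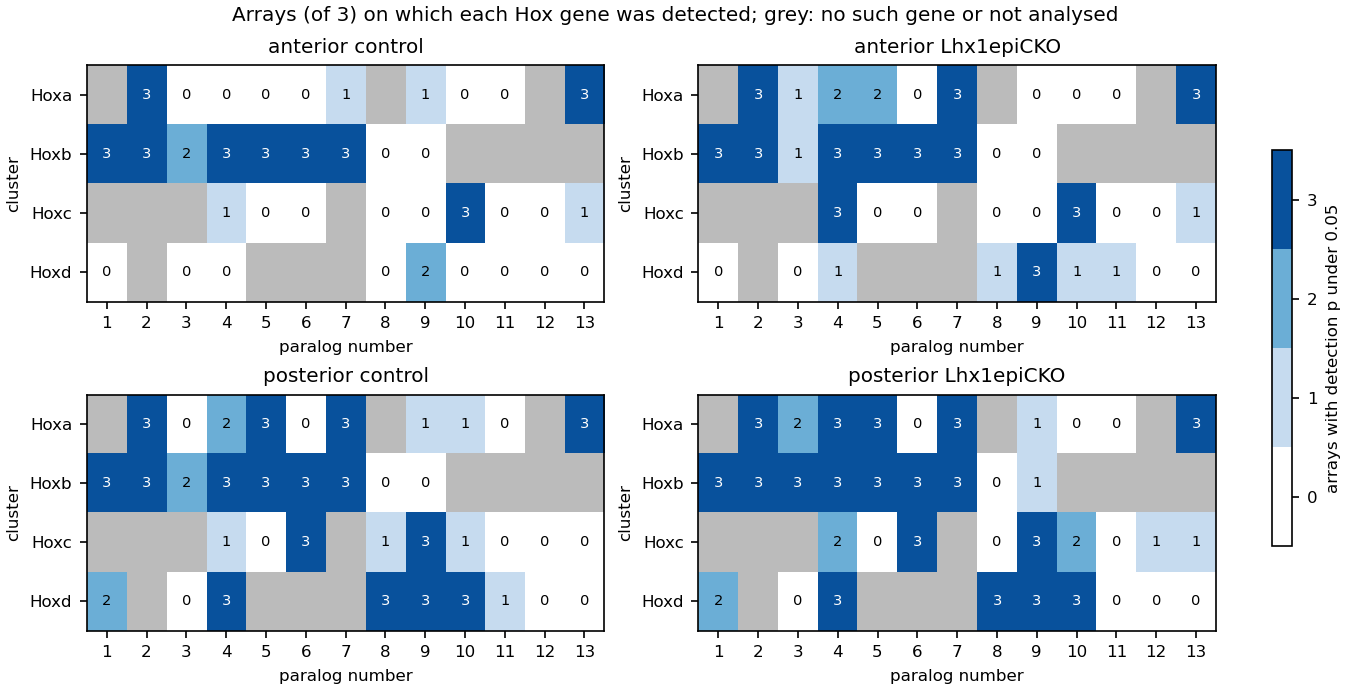
Number of arrays, of 3 per group, on which each Hox gene had a probe with detection p under 0.05, by cluster (rows) and paralog number (columns), for the 4 groups; grey cells are numbers with no such gene or a gene not analysed. The Hoxb row is filled from paralog 4 to 7 in every group, and in the Hoxd row Hoxd4, Hoxd8, Hoxd9 and Hoxd10 reach 3 of 3 arrays in both posterior groups.

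Among high paralog numbers detection was rare, and 4 of the 8 genes numbered 11 to 13 were detected on no array. Hoxa13, a gene of the distal limb and hindgut, was detected on all 12 arrays, but its brightest probe read only 6.64 to 7.20 on the log2 scale, and its other probes were detected on 2 arrays and on 0. The lowest signal of any detected probe lay between 6.77 and 6.87 across the arrays. Hoxa6, Hoxa11, Hoxb8, Hoxc5, Hoxc11, Hoxd3, Hoxd12 and Hoxd13 were detected on no array. Hoxa3, Hoxa9, Hoxa10, Hoxb9, Hoxc8, Hoxc12 and Hoxd11 were detected on 1 to 3 arrays, with no probe reaching 3. These 15 genes on 19 probes read between 6.25 and 7.14 and were not tested, so the other 22 are those that passed a filter on dim probes, not all members.

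In control embryos Hox genes of every cluster rose in the posterior part. Of the 22 Hox genes tested, 14 rose from anterior to posterior at an adjusted p under 0.05 and none fell, in a comparison where 1.92% of all genes tested were called higher. Hoxa5, Hoxc6, Hoxc9, Hoxd4, Hoxd8 and Hoxd10, all among the 14, were detected on at most 2 of the 6 anterior arrays (Hoxc6 and Hoxc9 on none). They passed the filter on dim probes through posterior arrays, as did Hoxa4, Hoxd1 and the brightest probe of Hoxb3. The counts and medians therefore only describe the genes tested. The 3 largest differences were those of Hoxb1, Hoxa5 and Hoxd9. The 14 were 3 of 5 tested genes of the Hoxa cluster, 5 of 7 of Hoxb, 2 of 5 of Hoxc and 4 of 5 of Hoxd. The median difference of the 22 was 0.97 on the log2 scale, against -0.018 over all genes, and 20 of the 22 were above 0. In 16 of the 22 all posterior arrays lay above all anterior arrays, which held for 10.3% of all genes. Without the array labelled posterior control replicate 2, 11 were called, with a median of 0.81, and without that array and posterior Lhx1epiCKO replicate 3, 14. In these bulk pools, fewer cells with a transcript and less transcript per cell cannot be told apart.

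**Figure D2:**
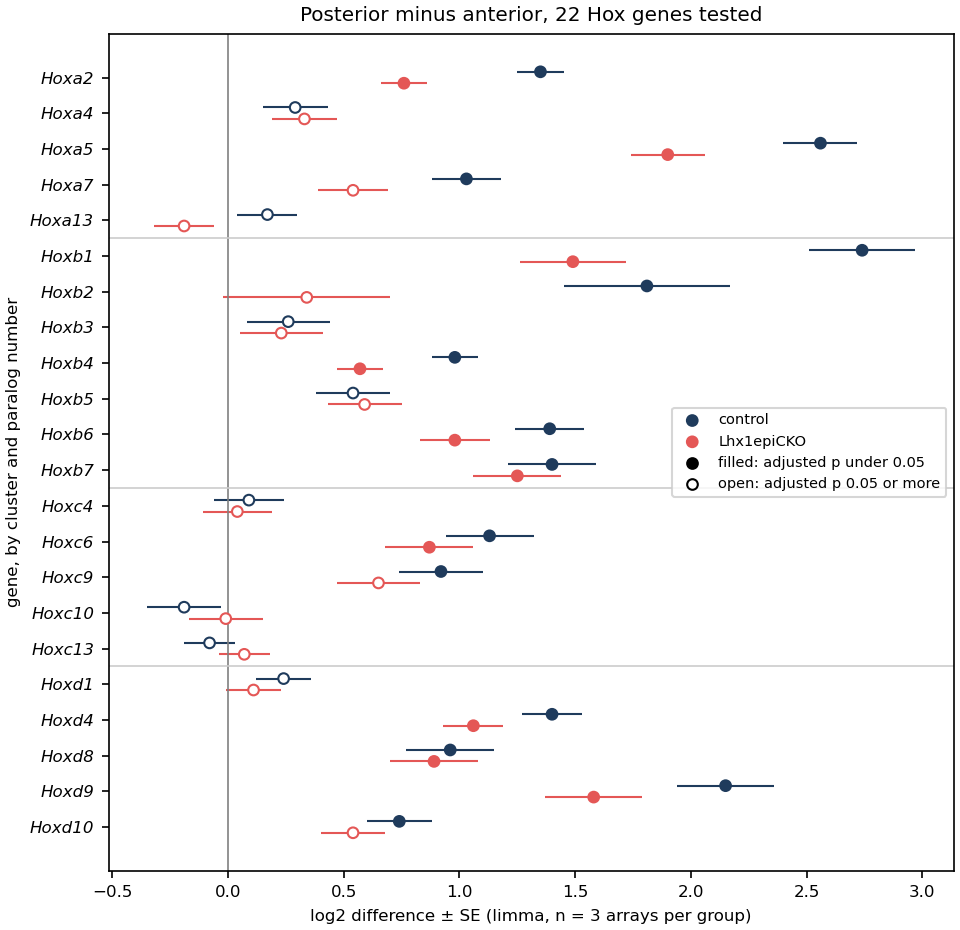
Posterior minus anterior difference (log2, with SE, limma fit of 12 arrays) of the 22 Hox genes tested, by cluster and paralog number, in control (dark blue) and Lhx1epiCKO (red) embryos; filled points have an adjusted p under 0.05. Hoxb1 at 2.74, Hoxa5 at 2.56 and Hoxd9 at 2.15 lead in controls, and the points of Hoxc4, Hoxc10 and Hoxc13 lie near 0 in both genotypes.

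The earliest Hox genes of the hindbrain are those of paralogs 1 and 2, and 3 of the 4 tested rose. Hoxb1, which gives the region of the facial motor neurons its identity, read 8.41, 7.83 and 8.63 in anterior controls and 11.07, 11.16 and 10.86 in posterior controls. Its difference was 2.74 ± 0.23 (log2, SE), or 6.7-fold (adjusted p = 2.21e-05), and its second probe gave 3.01 ± 0.25. The groups were far apart and did not overlap. Hoxa2, which patterns the second branchial arch, read 6.96, 6.84 and 7.09 against 8.35, 8.24 and 8.33, a difference of 1.35 ± 0.10 (adjusted p = 5.63e-06). Hoxb2, a direct target of HOXB1 in the hindbrain, read 8.38, 8.30 and 8.46 against 10.6, 10.08 and 9.90, a difference of 1.81 ± 0.36 (adjusted p = 0.0139). Its call was lost without anterior control replicate 1 or 2 or posterior control replicate 1 or 2 (adjusted p from 0.0518 to 0.0733). Hoxd1 was undetected on all anterior arrays and read between 6.69 and 7.14 on posterior control arrays, with a difference of 0.24 ± 0.12 that did not pass (adjusted p = 0.459).

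The upstream sequences of Hoxb1 and Hoxa2 are shown because each holds 1 copy of TGATNNAT, the joint HOX and PBX recognition motif known from autoregulation of Hoxb1. They are the 250 bases before the annotated start (RefSeq, GRCm38.p6), written 5′ to 3′ on the gene's strand in lower case with the match in capitals. Hoxb1 lies at chr11:96365508-96365757 on the plus strand and Hoxa2 at chr6:52164832-52165081 on the minus strand.
Hoxb1: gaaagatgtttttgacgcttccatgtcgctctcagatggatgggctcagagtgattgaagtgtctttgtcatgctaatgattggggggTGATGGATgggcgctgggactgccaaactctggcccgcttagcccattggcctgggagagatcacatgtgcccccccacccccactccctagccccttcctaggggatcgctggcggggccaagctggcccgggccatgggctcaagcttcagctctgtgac
Hoxa2: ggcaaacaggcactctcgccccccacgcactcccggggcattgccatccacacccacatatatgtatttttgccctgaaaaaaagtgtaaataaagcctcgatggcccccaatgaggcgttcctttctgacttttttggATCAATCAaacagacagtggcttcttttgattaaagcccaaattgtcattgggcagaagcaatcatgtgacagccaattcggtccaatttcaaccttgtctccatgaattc
The Hoxb1 match TGATGGAT began 162 bases before the start, and the Hoxa2 match ATCAATCA, the motif on the opposite strand, 111 bases before it. Promoter sequences were at hand for 22 Hox genes (24 starts), which are not the same 22 as those tested. Within 250 bases upstream, 4 of these 24 windows held TGATNNAT on either strand, against 7.68% of 32851 windows of the same length, the others being Hoxb8 and Hoxd11. A match of letters is a description and shows no binding.

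Among paralogs 4 to 8, genes of the posterior hindbrain, neck and thorax, 8 of 11 tested genes rose in the posterior control part. Hoxa5, which shapes the lower neck and the lung, read 6.59, 6.73 and 6.50 on the anterior control arrays, below detection on all 3, and 8.98, 9.50 and 9.03 on the posterior control arrays. It was at least 5.23-fold higher posteriorly, with a fitted difference of 2.56 ± 0.16 (adjusted p = 3.59e-06). Bounds of this kind set the bright mean against the lowest detected signal and carry no sampling error. Hoxd4, a posterior hindbrain gene, was also undetected in anterior controls, at 6.62, 6.58 and 6.70, and read 7.95, 8.33 and 7.83 posteriorly, at least 2.38-fold higher (1.40 ± 0.13, adjusted p = 3.94e-05). Hoxb4, known for its part in blood stem cells and cervical vertebrae, read 7.07, 7.0 and 7.08 against 7.94, 8.19 and 7.98, a difference of 0.98 ± 0.10 (adjusted p = 9.44e-05). All 3 genes separated the regions without overlap.

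The thoracic genes Hoxb6 and Hoxb7 were detected in both regions. Hoxb6 rose from 7.14 ± 0.07 to 8.53 ± 0.23 (SD, n = 3), a difference of 1.39 ± 0.15 (SE, adjusted p = 0.000111). Hoxb7 rose from 7.27 ± 0.06 to 8.67 ± 0.45, a difference of 1.40 ± 0.19 (adjusted p = 0.0011). Hoxa7, also thoracic, was detected on 1 anterior control array and read 6.78, 6.78 and 6.59 anteriorly and 8.05, 7.84 and 7.36 posteriorly, a difference of 1.03 ± 0.15 (adjusted p = 0.00188). Hoxc6, a gene of the brachial spinal cord, and Hoxd8 were undetected in anterior controls. Hoxc6 was at least 1.82-fold higher posteriorly (1.13 ± 0.19, adjusted p = 0.00386) and Hoxd8 at least 1.85-fold (0.96 ± 0.19, adjusted p = 0.0141). The Hoxd8 call was lost without anterior control replicate 1, 2 or 3 (adjusted p from 0.0509 to 0.0653). The remaining genes did not pass: Hoxb5 differed by 0.54 ± 0.16 without overlap (adjusted p = 0.101, but 0.00952 with array weights, 0.0356 without anterior control replicate 3 and 0.0451 without posterior Lhx1epiCKO replicate 3), Hoxa4 by 0.29 ± 0.14 and Hoxc4 by 0.09 ± 0.15. Hoxb3, a paralog 3 gene of the caudal hindbrain, differed by 0.26 ± 0.18 and did not pass.

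TTTATG is a motif bound by the caudal factors CDX1, CDX2 and CDX4. Among the tested genes with a promoter sequence at hand, the upstream windows of Hoxa7 and Hoxd4 held it. Tested genes without a sequence at hand included Hoxb2, Hoxb6, Hoxb7, Hoxc6 and Hoxc9, which also rose posteriorly in controls. Hoxa7 lies at chr6:52218574-52218823 on the minus strand and Hoxd4 at chr2:74721728-74721977 on the plus strand of GRCm38.p6, and capitals mark the matches.
Hoxa7: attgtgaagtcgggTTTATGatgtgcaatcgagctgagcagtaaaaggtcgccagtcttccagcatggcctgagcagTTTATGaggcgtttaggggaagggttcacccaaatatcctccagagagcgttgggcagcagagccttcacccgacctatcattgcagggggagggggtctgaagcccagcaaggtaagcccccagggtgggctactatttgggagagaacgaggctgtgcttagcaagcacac
Hoxd4: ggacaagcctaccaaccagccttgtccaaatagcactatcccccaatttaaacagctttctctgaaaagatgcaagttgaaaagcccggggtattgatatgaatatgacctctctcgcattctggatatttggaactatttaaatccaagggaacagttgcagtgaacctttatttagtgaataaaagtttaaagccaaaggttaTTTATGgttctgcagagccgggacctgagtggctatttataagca
The Hoxa7 matches began 236 and 173 bases before the start and the Hoxd4 match 45 bases before it. TTTATG on either strand was held by 5 of the 24 Hox windows (also those of Hoxb8, Hoxd3 and 1 start of Hoxd11) and by 10.8% of all windows. The variant TTTACG was in 1 Hox window, that of Hoxb8, and in 2.61% of all. Hoxa5, Hoxb4, Hoxd8, Hoxd9 and Hoxd10, which also rose posteriorly in controls, held none of these motifs in the window. Hoxa2 and Hoxb1, which rose as well, held neither TTTATG nor TTTACG.

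Of the paralogs 9 to 13, 3 of 6 tested genes rose in the posterior control part. Hoxd9, a gene of the lumbar region and limb, read 6.68, 6.81 and 6.83 anteriorly and 8.82, 9.16 and 8.77 posteriorly, a difference of 2.15 ± 0.21, or 4.44-fold (adjusted p = 4.89e-05). Its second probe was detected on none of the 3 anterior control arrays. Hoxc9, which marks thoracic motor neuron columns, read 6.62, 6.63 and 6.61 against 7.64, 7.88 and 7.09 and was at least 1.68-fold higher posteriorly (0.92 ± 0.18, adjusted p = 0.0116). Hoxd10, a lumbar motor neuron gene, read 6.53, 6.63 and 6.49 against 7.27, 7.46 and 7.15 and was at least 1.42-fold higher (0.74 ± 0.14, adjusted p = 0.0101). Posterior control replicate 3 was the lowest array of its group for both. The Hoxc9 call was lost without anterior control replicate 2 or posterior control replicate 1 or 2 (adjusted p from 0.0506 to 0.0567). The Hoxd10 call was lost without anterior control replicate 3 or posterior control replicate 2 (adjusted p of 0.0505 and 0.0568). Hoxa13 differed by 0.17 ± 0.13 and Hoxc13 by -0.08 ± 0.11, neither passing. Hoxc10 read 6.98, 6.97 and 6.98 anteriorly and 6.79, 6.88 and 6.68 posteriorly, a difference of -0.19 ± 0.16 that did not pass (adjusted p = 0.717). It was the 1 tested Hox gene whose posterior arrays all lay below the anterior ones, as in 1544 of all 11470 genes. Its second probe was detected on no array.

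In Lhx1epiCKO embryos 10 of the 22 tested Hox genes rose from anterior to posterior and none fell, where 1.01% of all genes were called higher. The median difference of the 22 was 0.58 on the log2 scale, against -0.013 over all genes. In 15 of the 22 all posterior arrays lay above all anterior ones, as in 8.22% of all genes. All 10 genes were also called in controls, and they made up 71.4% of the 14 called there. Among them, Hoxa5, Hoxc6, Hoxd4 and Hoxd8 passed the filter on dim probes through posterior arrays. The counts and the median here therefore also only describe the genes tested. The regional comparisons of the genotypes use different arrays but share the estimate of the spread. Whether the regional difference itself changed with genotype was tested as the difference of the genotype effects.

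The genes of largest difference were Hoxa5, Hoxd9 and Hoxb1. Hoxa5 rose from 6.94 ± 0.26 to 8.84 ± 0.18 (SD, n = 3), a difference of 1.90 ± 0.16 (SE, adjusted p = 0.000121). Hoxd9 rose from 7.02 ± 0.18 to 8.6 ± 0.52, a difference of 1.58 ± 0.21 (adjusted p = 0.00172). Hoxb1 read 9.20, 9.67 and 9.59 on the anterior arrays and 11.34, 11.12 and 10.46 on the posterior arrays, a difference of 1.49 ± 0.23 (adjusted p = 0.00534). Its lowest posterior array was the array labelled replicate 3. Hoxb7 differed by 1.25 ± 0.19, Hoxd4 by 1.06 ± 0.13, Hoxb6 by 0.98 ± 0.15 and Hoxa2 by 0.76 ± 0.10 (adjusted p from 0.00125 to 0.00484). The second Hoxa2 probe differed by 0.89 ± 0.23 and did not pass (adjusted p = 0.0907). The second probes of Hoxb1 and Hoxb7 differed by 1.21 ± 0.25 and 0.75 ± 0.17 (adjusted p of 0.0297 and 0.046). They passed in 12 and 7 of 22 alternative fits, and the second Hoxd9 probe in 21 of 21. Where only the 6 Lhx1epiCKO arrays were fitted, Hoxb1, Hoxb6 and Hoxd9 did not pass (adjusted p of 0.068, 0.0659 and 0.0659).

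Hoxb4, Hoxc6 and Hoxd8 passed less securely. Hoxb4 differed by 0.57 ± 0.10 (adjusted p = 0.0128), with a call lost without anterior Lhx1epiCKO replicate 1 or 2 (adjusted p of 0.11 and 0.0568) and in the fit of Lhx1epiCKO arrays (adjusted p = 0.111). Hoxc6 was at least 1.61-fold higher posteriorly (0.87 ± 0.19, adjusted p = 0.0392), and its call was lost in the fit of Lhx1epiCKO arrays (adjusted p = 0.0541). Hoxd8, detected on 1 anterior Lhx1epiCKO array, differed by 0.89 ± 0.19 (adjusted p = 0.0399). The calls of Hoxc6 and Hoxd8 were lost without any 1 of the anterior arrays of either genotype, posterior control replicate 1 or posterior Lhx1epiCKO replicate 1 or 2 (adjusted p from 0.055 to 0.192), with no filter on dim probes, and with an offset of 16 added on the linear scale. Hoxb2 read 9.74, 10.19 and 8.27 on the posterior Lhx1epiCKO arrays and 9.01, 8.95 and 9.21 on the anterior ones, so the array labelled replicate 3 lay below every anterior array. Its difference was 0.34 ± 0.36 (adjusted p = 0.715) and 0.91 without that array (adjusted p = 0.00936). Without that array 12 Hox genes were called, and without posterior control replicate 2, 10. Hoxa7, Hoxc9 and Hoxd10 differed by 0.54 ± 0.15, 0.65 ± 0.18 and 0.54 ± 0.14 and did not pass (adjusted p of 0.137, 0.119 and 0.0991). Hoxa7 and Hoxc9 passed without posterior control replicate 3 (adjusted p of 0.0408 and 0.0364), Hoxc9 also without posterior Lhx1epiCKO replicate 1 (adjusted p = 0.0459), and Hoxd10 without posterior Lhx1epiCKO replicate 3 (adjusted p = 0.0198), without both that array and posterior control replicate 2 (adjusted p = 0.0174) and with array weights (adjusted p = 0.0223).

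In anterior samples none of the 22 Hox genes reported passed in limma between the genotypes, where 0.0349% of all genes were called higher. At an unadjusted p under 0.05, 2 of the 22 lay higher (Hoxa2 and Hoxb1) and none lower, against 1.12% of all genes higher. The difference was above 0 for 20 of the 22, against 50.1% of all genes, and the median was 0.14 against 0.00021. In 11 of the 22 all Lhx1epiCKO arrays lay above all controls, as in 6.19% of all genes. In 1, Hoxc10, all lay below, as in 774 of 11470 genes. All 4 tested genes of paralogs 1 and 2 lay without overlap above controls, with a median of 0.57, and 7 of the other 18 did, with a median of 0.12. Hoxd1, among the 4, and Hoxc9, among the 7, were undetected on all 6 anterior arrays, so the order of their values there is not read as a difference. Hoxc6 was undetected there as well, and all of these genes enter the count above 0 and the median. The anterior control arrays also enter the regional comparison in controls.

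**Figure D3:**
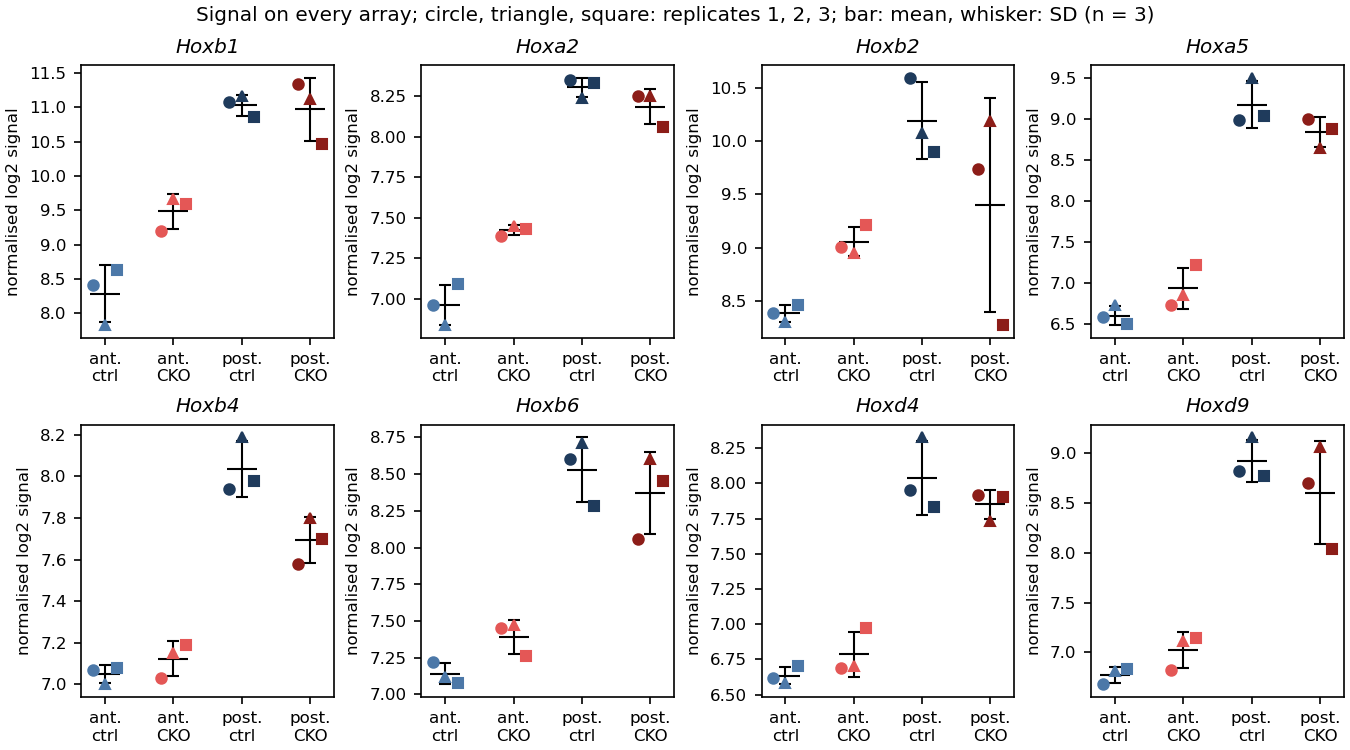
Normalised log2 signal of 8 Hox genes on each array (ant., anterior; post., posterior; ctrl, control; CKO, Lhx1epiCKO), with the mean and SD of 3 arrays; symbols mark replicates 1, 2 and 3. In Hoxa2, Hoxb1 and Hoxb2 the anterior Lhx1epiCKO arrays lie above every anterior control array, and in Hoxb2 the array labelled posterior Lhx1epiCKO replicate 3 lies at 8.27, apart from 9.74 and 10.19.

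The largest differences were those of Hoxb1, Hoxb2 and Hoxa2, which did not pass. Hoxb1 read 8.41, 7.83 and 8.63 on anterior control arrays and 9.20, 9.67 and 9.59 on anterior Lhx1epiCKO arrays, with no overlap, a difference of 1.20 ± 0.23, or 2.3-fold (adjusted p = 0.136), and its second probe gave 1.26 ± 0.25. Without the array labelled posterior Lhx1epiCKO replicate 3 Hoxb1 passed (adjusted p = 0.00394), with adjusted p values between 6.53e-05 and 0.889 among all alternatives. Hoxa2 read 6.96, 6.84 and 7.09 against 7.39, 7.45 and 7.43, a difference of 0.46 ± 0.10 (adjusted p = 0.223), or an adjusted p of 0.000111 with array weights. The second Hoxa2 probe gave 0.48 ± 0.23, with an unadjusted p of 0.0511 in limma, and did not pass. Hoxb2 read 8.38, 8.30 and 8.46 against 9.01, 8.95 and 9.21, a difference of 0.68 ± 0.36 (adjusted p = 1), or an adjusted p of 0.0114 where only the 6 anterior arrays were fitted. In each of these 3 genes the lowest Lhx1epiCKO array was above the highest control. The posterior arrays enter the anterior comparison through the shared estimate of the spread.

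The other tested genes differed by less. Hoxa5 read 6.59, 6.73 and 6.50 on anterior control arrays and 6.73, 6.86 and 7.22 on anterior Lhx1epiCKO arrays, of which 2 were detected, a difference of 0.33 ± 0.16 (adjusted p = 1). Hoxb6 differed by 0.26 ± 0.15, Hoxb7 by 0.24 ± 0.19 and Hoxd9 by 0.26 ± 0.21, none passing. The second Hoxd9 probe was detected on 0 of 3 anterior control arrays and on 3 of 3 anterior Lhx1epiCKO arrays, and Hoxa7 on 1 and on 3. Hoxa4, Hoxa7, Hoxb5, Hoxd4 and Hoxd10 differed by 0.14 to 0.16, and Hoxa13, Hoxb3, Hoxb4, Hoxc4 and Hoxd8 by 0.05 to 0.11. The fitted values of Hoxc6, Hoxc9 and Hoxd1 also lay in the latter range. These genes were undetected on all anterior arrays, so their values are not read as differences. Hoxc10 at -0.09 and Hoxc13 at -0.01 were the 2 below 0. The further Hoxb3 probes also turned the sign, at -0.01 and -0.03.

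Cell type markers were also compared between the genotypes in anterior samples, and only Foxd4 passed. The lists share genes with each other and with the lists of upstream regulators and cluster neighbours (Wnt3a, Fgf8, Tbx6, Hand1, Aldh1a2 and Evx1). Of 7 markers of the primitive streak and nascent mesoderm, all tested, 6 were above 0 in the anterior genotype comparison and none passed, led by Wnt3a at 1.80 ± 0.33 (adjusted p = 0.114) and Tbx6 at 1.21 ± 0.20 (adjusted p = 0.0596), with Mesp1 at -0.41. The mean level of these 7 was 8.20 to 8.29 on anterior control arrays, 8.51 to 9.60 on anterior Lhx1epiCKO arrays and 10.46 to 11.09 on the posterior arrays. The 5 tested of 6 paraxial mesoderm markers were all above 0, with mean levels of 7.53 to 7.84 and 8.43 to 8.50. The 5 tested of 6 anterior neural plate markers were all below 0, Sox1 at only -0.02 ± 0.14. Their mean levels were 9.03 to 9.20 and 8.27 to 8.36, and Foxd4 fell by 1.61 ± 0.19 (adjusted p = 0.00818). No marker of the streak or paraxial lists was undetected throughout. Mean levels on anterior control and anterior Lhx1epiCKO arrays were 7.20 to 7.30 and 7.56 to 7.67 for 6 markers of blood and endothelium, and 8.20 to 8.36 and 8.44 to 8.54 for 7 of the extraembryonic mesoderm. In both of these lists all markers were also above 0. Mean levels were 11.63 to 11.77 and 11.69 to 11.75 for 6 of the visceral endoderm, of which 3 were above 0 and 3 below. Of the 4 tested of 6 trophoblast markers 3 were above 0, with mean levels of at most 8.15 and 8.1. None of these markers passed in the anterior genotype comparison. The part of these shifts in the Hox values was not tested.

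**Figure D4:**
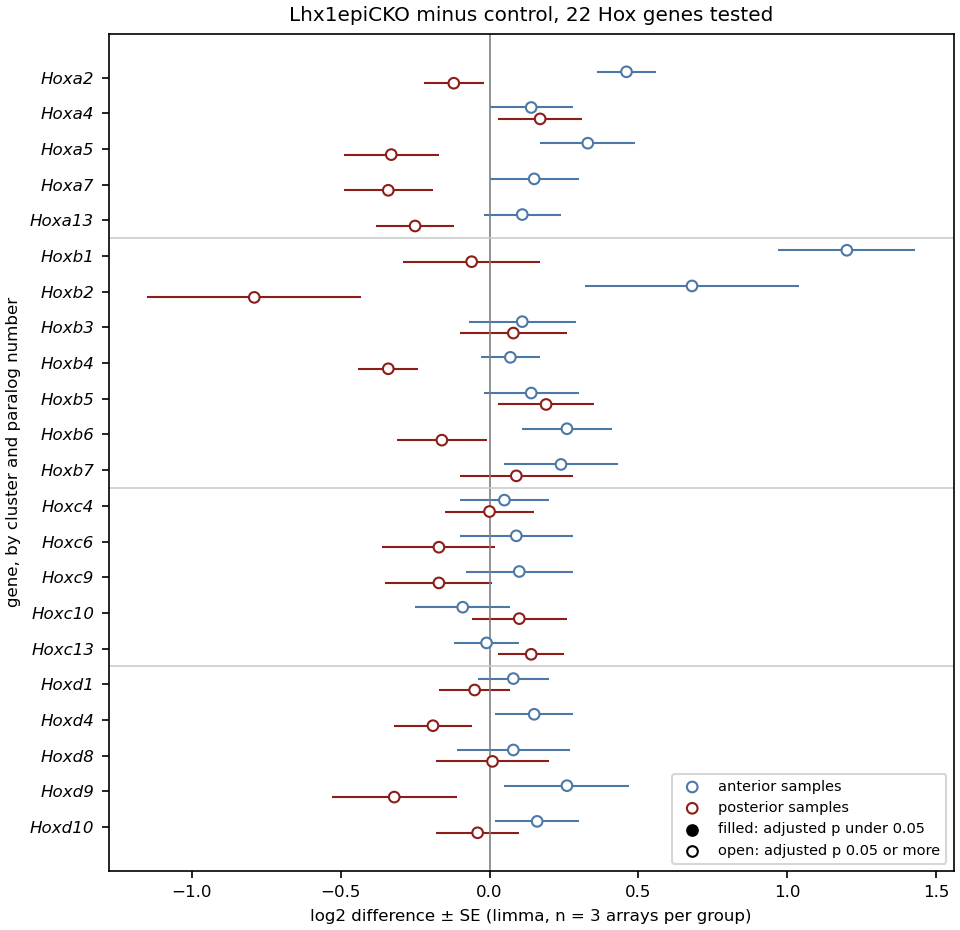
Lhx1epiCKO minus control difference (log2, with SE, limma fit of 12 arrays) of the 22 Hox genes tested, in anterior (blue) and posterior (dark red) samples; open points have an adjusted p of 0.05 or more, and no point is filled. Hoxb1 at 1.20 is the highest anterior point, and Hoxb2 at -0.79 is the lowest posterior point.

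In posterior samples no Hox gene passed in limma, higher or lower, and 0.00% of all genes did in either direction. At an unadjusted p under 0.05, 3 of the 22 lay lower (Hoxb4, Hoxa7 and Hoxb2) and none higher, against 4.82% of all genes lower. Without posterior control replicate 2, 1 lay lower and 1 higher at that p. Without posterior Lhx1epiCKO replicate 3, 1 lay lower and 0 higher, and without both arrays 1 lower and 2 higher. Hoxb4 read 7.94, 8.19 and 7.98 on posterior control arrays and 7.58, 7.80 and 7.70 on posterior Lhx1epiCKO arrays, a difference of -0.34 ± 0.10 (adjusted p = 0.482). It was the 1 Hox gene without overlap, where 4.79% of all genes lay lower without overlap. Hoxa7 read 8.05, 7.84 and 7.36 against 7.32, 7.59 and 7.31, a difference of -0.34 ± 0.15 (adjusted p = 0.508). Hoxb2 read 10.6, 10.08 and 9.90 against 9.74, 10.19 and 8.27, a difference of -0.79 ± 0.36 (adjusted p = 0.511), or -0.23 without the array labelled posterior Lhx1epiCKO replicate 3. The mean level of the 6 visceral endoderm markers ranged from 9.89 to 11.73 on the posterior Lhx1epiCKO arrays and from 11.39 to 11.93 on the posterior controls, and its part was not tested.

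The balance of signs in posterior samples changed without 1 array. With all arrays 7 of the 22 were above 0 and 15 below, with a median of -0.09. Without the array labelled posterior control replicate 2, 12 were above 0 and 10 below, with a median of 0.00. Hoxa5 differed by -0.33 ± 0.16, Hoxd9 by -0.32 ± 0.21 and Hoxa13 by -0.25 ± 0.13 (adjusted p from 0.532 to 0.593). The Hoxd9 difference was 0.08 without both posterior control replicate 2 and posterior Lhx1epiCKO replicate 3, and -0.04 without the latter alone. The second Hoxb7 probe differed by -0.22 ± 0.17, opposite in sign to the brighter probe at 0.09 ± 0.19. Hoxb1 read 11.07, 11.16 and 10.86 against 11.34, 11.12 and 10.46, a difference of -0.06 ± 0.23 with a 95% confidence interval from -0.56 to 0.45. Its second probe differed by -0.54 ± 0.25 (adjusted p = 0.516). The other 15 lay between -0.19 and 0.19.

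Whether the genotype effect differed between the regions was tested as the anterior minus the posterior difference, which is the same contrast as the regional difference in controls minus that in Lhx1epiCKO embryos. No Hox gene passed in limma, and 0.00% of all genes did. At an unadjusted p under 0.05, 6 of the 22 were higher (Hoxa2, Hoxa5, Hoxa7, Hoxb1, Hoxb2 and Hoxb4) and none lower, against 1.81% of all genes higher. The median of the 22 was 0.26 against -0.0052 over all genes, and 18 were above 0. Hoxb1 differed by 1.26 ± 0.33 and its second probe by 1.80 ± 0.35, which ranked 5 of 17041 probes by p (adjusted p of 0.981 and 0.442).

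Hoxb2 differed by 1.47 ± 0.51, and by 0.90 without the array labelled posterior Lhx1epiCKO replicate 3. Hoxa5 differed by 0.66 ± 0.23, Hoxa2 by 0.58 ± 0.14, Hoxa7 by 0.49 ± 0.22 and Hoxb4 by 0.41 ± 0.14, all with an adjusted p of 0.981. The second Hoxa2 probe differed by 0.52 ± 0.32, with an unadjusted p of 0.125 in limma. Without posterior control replicate 2 the median of the 22 was 0.12, with 16 above 0 and 5 of them at an unadjusted p under 0.05.

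Several known upstream regulators of Hox genes rose in the posterior part as well. Of 14 listed, 11 were tested and 6 rose posteriorly in both genotypes: the caudal factors Cdx1, Cdx2 and Cdx4, the streak ligands Wnt3a and Fgf8, and Aldh1a2, which makes retinoic acid. The share of all genes called higher was 1.92% in controls and 1.01% in Lhx1epiCKO embryos. In controls Cdx1 rose by 4.28 ± 0.30 (adjusted p = 4.33e-06), Cdx2 by 3.12 ± 0.24 (adjusted p = 6.66e-06) and Aldh1a2 by 2.11 ± 0.20 (adjusted p = 3.83e-05). In the anterior genotype comparison none passed. Cdx1 read 6.78 ± 0.21 on anterior control and 8.34 ± 0.42 on anterior Lhx1epiCKO arrays (SD, n = 3), a difference of 1.55 ± 0.30 (SE, adjusted p = 0.132). Cdx2 differed by 1.18 ± 0.24 (adjusted p = 0.157) and Aldh1a2 by 0.76 ± 0.20 (adjusted p = 0.627). Cyp26a1, which degrades retinoic acid, differed by -0.78 ± 0.23 (adjusted p = 1). The posterior genotype difference was 0.07 ± 0.30 for Cdx1, 0.09 ± 0.24 for Cdx2, -0.26 ± 0.20 for Aldh1a2 and -0.62 ± 0.23 for Cyp26a1. None of these passed (adjusted p from 0.504 to 0.952).

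The partners of HOX proteins and the genes beside the clusters mostly did not pass. Of 9 TALE cofactors, all tested, Meis2 rose posteriorly in controls by 0.95 ± 0.18 (adjusted p = 0.0114) and Meis1 fell posteriorly in Lhx1epiCKO embryos by 0.94 ± 0.18 (adjusted p = 0.0188). Of all 11470 genes, 220 were called higher in controls and 57 lower in Lhx1epiCKO embryos. In the other genotype Meis2 differed by 0.45 ± 0.18 and Meis1 by -0.55 ± 0.18, neither passing (adjusted p of 0.335 and 0.158). Their differences of the genotype effects did not pass (adjusted p = 0.981 for each). Of 13 listed neighbours of the clusters 9 were tested, and Evx1, the caudal homeobox gene at the end of the Hoxa cluster, rose posteriorly by 2.90 ± 0.26 in controls (adjusted p = 3.26e-05) and 2.64 ± 0.26 in Lhx1epiCKO embryos (adjusted p = 0.00033). The other 8 did not pass, nearest among them Skap2, at 0.41 ± 0.11 in controls (adjusted p = 0.0603). Of 14 Polycomb and trithorax genes, which keep Hox genes off or on, 13 were tested and none passed in limma in any comparison. At an unadjusted p under 0.05, 2 of them were higher and 3 lower posteriorly in controls, 0 and 3 in Lhx1epiCKO embryos, and 1 and 1 with genotype in each region. Of all genes, 5.88% were higher and 8.33% lower posteriorly in controls at that p, and 6.09% and 7.50% in Lhx1epiCKO embryos. No cofactor, upstream regulator or neighbour passed in limma in a genotype comparison. In anterior samples 2 cofactors, 5 regulators and 1 neighbour were higher at an unadjusted p under 0.05, with 1 regulator lower, where 1.12% of all genes were higher and 1.11% lower. In posterior samples none was higher, and 1 regulator and 1 neighbour were lower, where 5.07% of all genes were higher and 4.82% lower.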

How the data were processed

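Total RNA of 12 pools was hybridised to Illumina bead arrays, and the tools GenomeStudio and limma are listed in the submitters' processing notes. The authors deposited normalised log2 values, 1 per probe and array, with a detection p-value each. The background correction and normalisation are not given in the sources used here, and the number of arrays limits the precision. The gene names are those of the deposited table. A probe entered the tests if its detection p was below 0.05 on 3 or more of the 12 arrays, which left 17041, fitted with limma 3.58.1 in R 4.3.3 (lmFit and eBayes over 4 groups, Benjamini-Hochberg adjustment over all probes, called at an adjusted p under 0.05). A gene is represented by its brightest tested probe. Bounds ("at least") set a group's mean against the lowest detected signal per array where the gene was undetected. Every detected member is named, with full statistics for those called and the 6 smallest p in each comparison. The Hox genes, marker genes and regulator lists were chosen with earlier results of these data known. The fit was tested on simulated data. An item withheld from the text is not reported here, and counts of Hox genes leave it out. Promoter sequences came from RefSeq. Alternatives covered the filter, offset, scaling, weights, probe rule, arrays and replicate block.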

Additional observations from a re-analysis of the deposited data

How the results depend on the processing

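Over 22 alternative fits the posterior genotype comparison and the difference of the genotype effects gave 0 called Hox genes each time. The regional count in controls was 14, 11 to 15 without 1 array at a time, and 6 of the 7 genes that remained testable when detection on all 12 arrays was asked. The regional count in Lhx1epiCKO embryos was 10, 7 to 12 without 1 array at a time, 5 of 7 with detection on all 12 arrays, and 5 in the fit of the 6 arrays compared. The anterior genotype count was 0, 0 to 1 without 1 array at a time, 3 with array weights (Hoxa2, Hoxb1 and Hoxb2), 2 where only anterior arrays were fitted (Hoxb1 and Hoxb2), and 1 (Hoxb1) without the 2 posterior arrays that stood apart or went against their label. Fewer genes were tested under the stricter filter; for the other settings the cause was not tested. With a replicate block by number the anterior count was 0, the Lhx1epiCKO regional count was 11 (with Hoxd10, adjusted p = 0.0436), and with a block by genotype and number it was 7, without Hoxb4, Hoxc6 and Hoxd8 (adjusted p of 0.0503, 0.0589 and 0.0564). Samples of the same number in anterior and posterior groups correlated in their deviations by -0.041 to 0.024 in controls and 0.068 to 0.246 in Lhx1epiCKO embryos. Samples of different number correlated by -0.046 to 0.048 in controls and -0.182 to 0.064 in Lhx1epiCKO embryos. Every same-number value thus lay above all others in Lhx1epiCKO embryos, but not in controls. Samples of different genotype cannot share embryos. Between the genotypes, anterior samples of the same number correlated by 0.019 to 0.241 and those of different number by -0.151 to 0.081. In posterior samples these values were 0.005 to 0.031 and -0.034 to 0.024. The labels do not tie anterior to posterior pools, so the main fit did not pair samples. Pairing of the Lhx1epiCKO pools is not excluded. Of 927 alternative values for 42 single-gene results, 875 kept direction and call, 44 lost the call, 7 gained it and 1 changed sign (Hoxd9 in posterior samples, 0.08 without both of those arrays). With 3 arrays a group and signals of many Hox genes near the lowest detected level, small differences of dim members were not detectable.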
